A study of Mus musculus with 2 samples.

Results

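Smad2, Smad7, Twist1, Vegfc and Cldn1 are genes of transforming growth factor beta (TGF-beta) signalling, of the epithelial-mesenchymal transition (EMT) and of vessel growth. Each was assigned a called site of KLF6 in an HCC (hepatocellular carcinoma) line of the mouse. All 5 calls had a false discovery rate of 100%, so binding at them is not established. The genes were chosen by the gene symbol that the deposited site lists assign to each site, and because they carry one. They are 5 of the 574 genes with a symbol in either list and hold 5 of all 1643 sites. The presence of a site at each of them is therefore how they were picked and no result.

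The sites were mapped by chromatin immunoprecipitation and sequencing (ChIP-seq), in which DNA bound by a protein is enriched with an antibody and counted as short sequenced tags. HCC cells grown in DMEM with serum carried a transfected plasmid that encodes the whole KLF6 protein with a V5 tag. The ChIP sample was precipitated with antibody against V5, and the input sample was DNA of such cells without precipitation. Both groups thus come from cells with the tagged protein, there is 1 sample per group, and cells without it were not analysed here. Per the labels, each sample joins 3 sequencing files, 2 of a first replicate experiment and 1 of another. Sites were deposited separately for experiment 1, with its 2 runs pooled (742 sites), and for experiment 2 (901 sites). The read totals behind the lists are unknown, and expression was not measured, so the liver origin of the cells could not be checked against marker genes.

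KLF6, a Krüppel-like zinc finger factor, binds GC-rich DNA and has been studied in liver as a tumour suppressor and as a regulator of TGF-beta pathway genes. In TGF-beta signalling a ligand brings together serine/threonine kinase receptors, which phosphorylate receptor-regulated Smad proteins such as Smad2. These enter the nucleus with Smad4, and the inhibitory Smads, Smad6 and Smad7, restrain the pathway at the receptor. TGF-beta is a classic inducer of EMT, in which epithelial cells lose their junctions under repressors such as Twist1, and carcinoma cells also secrete vessel growth factors of the VEGF family.

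All 5 sites were in experiment 2, and experiment 1 had 0 sites assigned to these genes. Each gene had 1 site. Of the 5, 2 lay inside the gene, at Smad2 and Vegfc, and 3 lay downstream of it, at Smad7, Twist1 and Cldn1. None of these 5 summits lay upstream of the gene, and the upstream share over the whole list was not counted. Over all sites of experiment 2, 18.4% lay inside the assigned gene and 34.7% downstream of it. Counts out of 5 are too small to set apart from these shares, and no test was made. The summit, the base where the caller placed the peak, was 11.95 to 163 kb from the gene start, with a median of 102 kb, against a median of 50.4 kb over the 901 sites. A site was given to the gene with the nearest start in all 901 cases, so a gene whose body holds the site can be passed over. Coordinates are those of the lists (build mm9). Exons and introns were not placed, because no annotation of that build was used here.

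**Figure D1:**
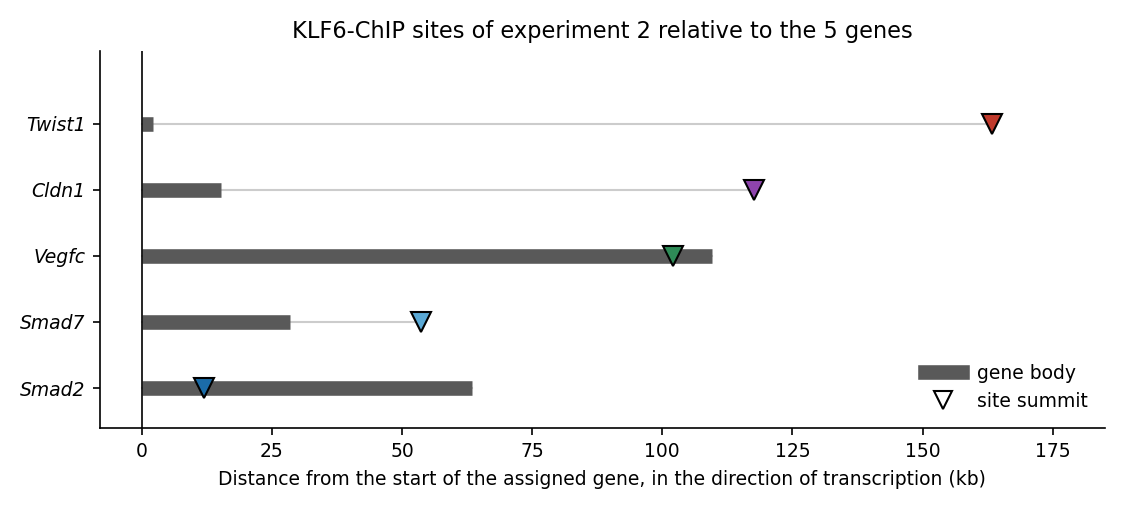
Summit of each of the 5 sites (triangles) along the distance in kb from the start of its gene, in the direction of transcription, with the gene body as a dark bar. The summits at Smad2 and Vegfc fall inside the bar, and those at Smad7, Cldn1 and Twist1 fall beyond its end, the last 163 kb from the start.

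Smad2 (ENSMUSG00000024563) encodes the receptor-regulated Smad that carries TGF-beta and activin signals to the nucleus. Its site lay on chromosome 18 from 76413408 to 76413604 (mm9), a width of 197 bp, inside the 63.4 kb gene on the plus strand. The summit was 11.95 kb past the gene start, or 18.9% of the way along the gene, the closest to a gene start among the 5. The site held 9 tags, the lowest number in the list (exact Poisson 95% interval of the count 4.12 to 17.1). The authors' fold enrichment, taken here as ChIP over the background their caller expected, was 10.25. Their false discovery rate (FDR) was 100%, the highest it can be. The score, a p-value of the caller written as 10 times its −log10, was 52.2. The score exceeded 50 at every listed site. The Smad2 site had rank 689 of 901 by score and at rank 435 by fold.

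Smad7 (ENSMUSG00000025880) encodes an inhibitory Smad that is itself induced by TGF-beta and brings ubiquitin ligases to the receptor. Its site lay on the same chromosome from 75580494 to 75580768, 53.7 kb past the gene start and 25.1 kb beyond the end of a gene of 28.6 kb. It held 10 tags (interval 4.80 to 18.4) at 9.27-fold, with a score of 54.67 and an FDR of 100%. By score it was number 531 of 901 and by fold number 586. Ctif, a gene for a translation factor, is the next protein-coding gene on that side in the RefSeq table of assembly GRCm38.p6, and whether the site reaches into it was not determined.

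The sites at the Smad genes were each other's nearest site in experiment 2. Their summits were 832.8 kb apart, on a chromosome with 34 sites of experiment 2 and 13 of experiment 1. In the RefSeq order 2 protein-coding genes, Ctif and Zbtb7c, lie between Smad7 and Smad2. A neighbour in the same list within 1 Mb was common, at 54.4% of all sites of experiment 2. The other members, on chromosomes 12, 8 and 16, had none within that distance, and their nearest was 1.27 to 1.36 Mb away.

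Twist1 (ENSMUSG00000035799) encodes a basic helix-loop-helix factor that represses E-cadherin and drives EMT. Its site, on chromosome 12 from 34805756 to 34806049, was the farthest of the 5 from its gene. The summit was 163 kb past the start of a gene of only 2.15 kb, 161 kb beyond its end. It held 10 tags (interval 4.80 to 18.4), with a score of 53.22 (rank 625) and an FDR of 100%. Its fold of 11.15 was the highest among the 5 and ranked 234 of 901. That rank was shared, since 89 sites of the list had exactly this fold and 37 of them had 10 tags as well. The next protein-coding gene beyond Twist1 on the side of the site is Hdac9, which encodes a class IIa histone deacetylase. Whether the site lies inside Hdac9 was not determined.

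Cldn1 (ENSMUSG00000022512) encodes claudin 1, a strand-forming protein of tight junctions, which in liver seal the bile canaliculi. The gene is on the minus strand of chromosome 16, and the site from 26254098 to 26254460 lay beyond its end, 118 kb from the start and 102 kb from the end. With 363 bp it was the widest of the 5 sites. It held 13 tags (interval 6.92 to 22.2), with a score of 62.12, an FDR of 100% and a fold of 8.60, the lowest of the 5. Ranks differed most between measures here, with 214 by score, 225 by tags and 678 by fold. Cldn16, the other claudin gene next to Cldn1, is on the opposite side from the site, and P3h2, a collagen prolyl hydroxylase gene, is the next one on its side.

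Vegfc (ENSMUSG00000031520) encodes the ligand of Flt4 (VEGF receptor 3), the main growth signal of lymphatic vessels. Its site was the best-scoring of the 5. It lay on chromosome 8 from 55264906 to 55265248, inside a gene of 109 kb and toward its 3′ end, 93.3% of the way along and 7.20 kb from the end. It held 15 tags (interval 8.40 to 24.7) at 10.84-fold, with a score of 70.91 and an FDR of 100%. By score it was number 102 of 901, by tags number 141 and by fold number 347.

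Differences in tag count among the 5 sites were within counting error. Their tag counts ran from 9 to 15 and all 5 Poisson intervals overlapped. The intervals were also scaled to the fold as if it were proportional to the tag count. They were then widest at Twist1 (5.35 to 20.5) and narrowest at Cldn1 (4.58 to 14.7), and all overlapped too. That proportion is an assumption, since 89 sites had a fold of exactly 11.15 but only 37 of them had 10 tags. The scaled intervals may thus not be those of the caller's fold. On that assumption the order of the folds, Twist1, Vegfc, Smad2, Smad7 and Cldn1, separates no neighbours. These intervals cover counting error only. The lists do not say whether the tags are those of the ChIP library. Tags divided by fold were 0.878 at Smad2, 0.897 at Twist1, 1.08 at Smad7, 1.38 at Vegfc and 1.51 at Cldn1. The list as a whole had a median of 1.11. The caller's own background is not listed. It need not equal this ratio, since sites with different tag counts had exactly the same fold.

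**Figure D2:**
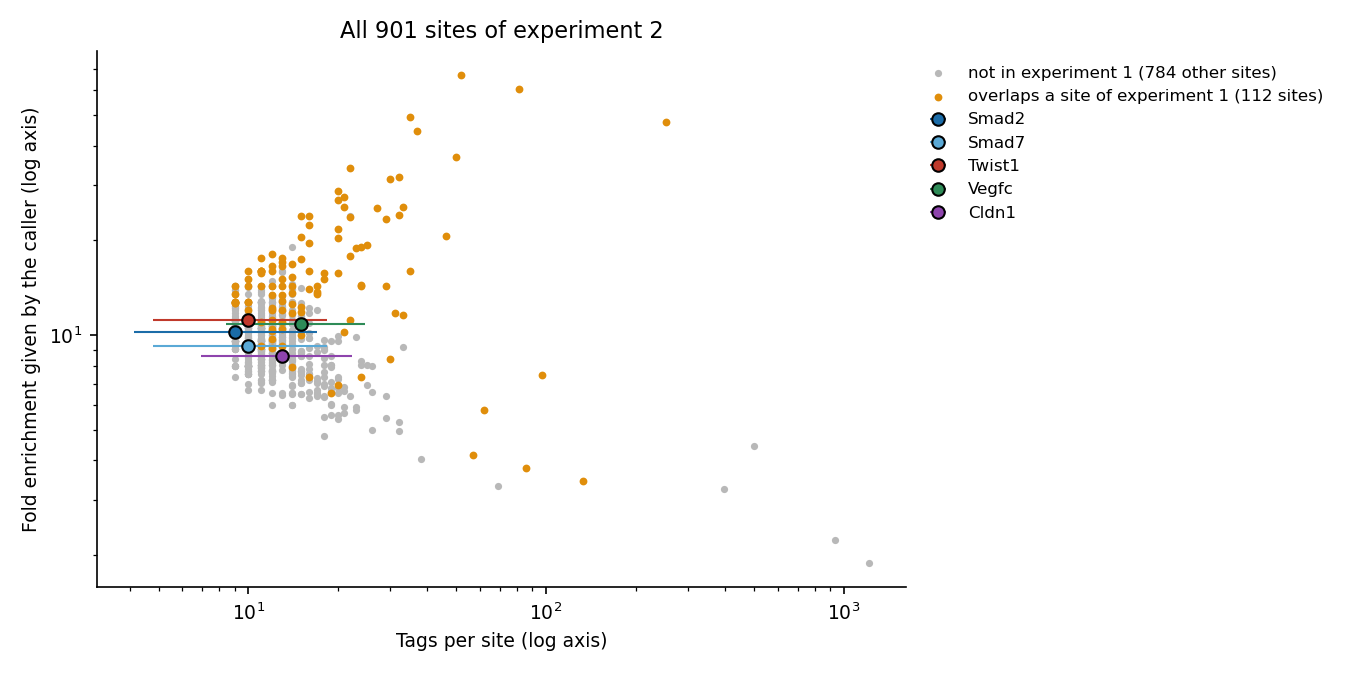
Tags per site against the authors' fold enrichment, both on log axes, for the sites of experiment 2; orange points overlap a site of experiment 1, grey points do not, and the 5 genes are in colour with exact Poisson 95% intervals of their tags. The 5 sites lie at 9 to 15 tags and 8.60-fold to 11.15-fold, within the dense cloud of grey points.

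Set against the whole list, the sites at the 5 genes had common values. The median fold was 10.25 at the 5 sites and 10.04 over all 901, the median tag count 10 and 11, the median score 54.67 and 55.74, and the median width 294 and 297 bp. The range of folds from Cldn1 to Twist1 held 454 of the 901 sites (50.4%). Of the 5, 2 were among the 450 sites with the higher scores, Vegfc and Cldn1, beside 49.9% of all sites. By fold they were 3, Smad2, Twist1 and Vegfc. An FDR under 100% was given to 3.22% of the list and to 0 of the 5 sites.

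**Figure D3:**
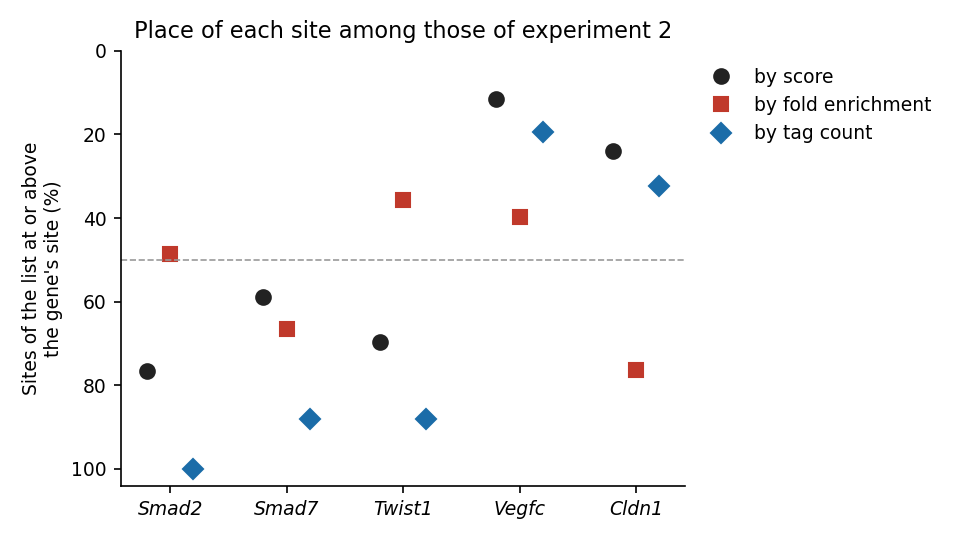
Percent of the 901 sites of experiment 2 whose score, fold enrichment or tag count was at or above that of the site at each gene, with 50% dashed. Vegfc stands highest by score, at 11.4%, and the Smad2 site has the lowest tag count the list contains, at 100%.

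The comparison of the experiments asked which of these sites were found again. At 1 bp or more, 0 of the 5 overlapped a site of experiment 1, beside 12.4% of all sites of experiment 2. The 5 sites held 9 to 15 tags, beside a median of 11 over the list. The shares of refound sites at such counts were as follows. Of the 761 sites with 9 to 15 tags, 58 (7.62%) were shared, and of the 140 sites with more tags 54 (38.6%) were. Among the 100 sites closest in score rank to each gene's site, 31 were shared around Vegfc, 12 around Cldn1, 3 each around Smad7 and Twist1, and 2 around Smad2. Among the other sites with exactly as many tags, 6 of 34 (17.6%) were shared for Vegfc, 11 of 66 (16.7%) for Cldn1, 6 of 106 (5.7%) for Smad2 and 7 of 224 (3.1%) for Smad7 and Twist1. Absence from experiment 1 could not be set against its depth, which is unknown. The sites listed for experiment 1 held at least 14 tags, with a median of 21, against 9 and 11 in experiment 2. Whether this difference bears on the absence was not tested.

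The wider surroundings were then examined. Within 500 kb of the gene start, 0 of the 5 genes had a summit of experiment 1, beside 31.4% of all sites of experiment 2 measured from their assigned gene. Its nearest summit was 781.1 kb from the site at Smad7, at a feature without a description (ENSMUSG00000077479, 14 tags, 8.66-fold), and this was also the nearest to the Smad2 site, at 1.61 Mb. The distance was 1.53 Mb at Cldn1, 1.93 Mb at Vegfc and 4.57 Mb at Twist1. Smad7 was thus the single gene of the 5 with a summit of experiment 1 within 1 Mb, which 48.1% of all sites of experiment 2 had. The median distance was 1613.9 kb for the 5 sites and 1068.6 kb for the list.

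**Figure D4:**
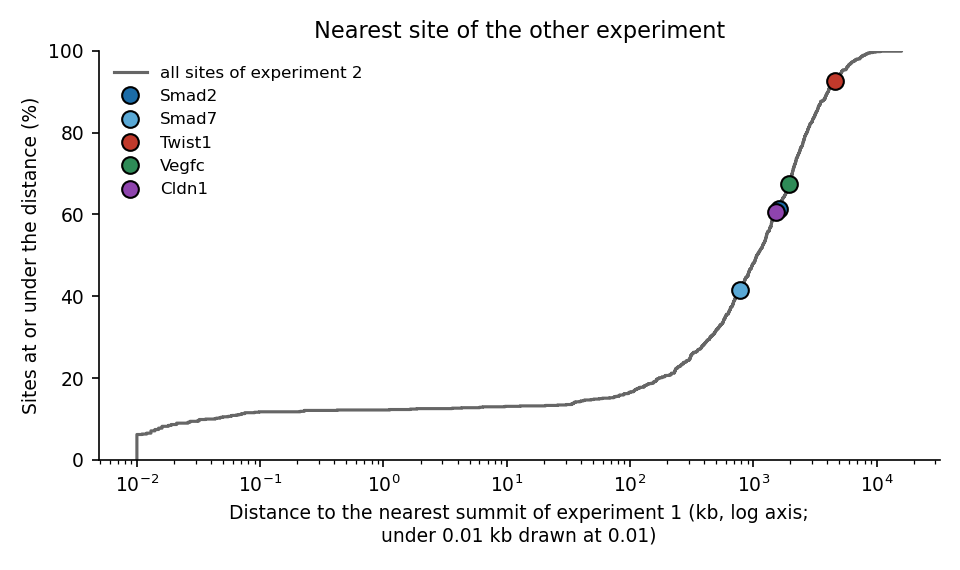
Cumulative percent of the sites of experiment 2 by distance to the nearest summit of experiment 1 (kb, log axis), with the 5 genes on the curve. The curve has an early step of sites refound in experiment 1 and a later rise. The 5 genes sit on that rise, from 781.1 kb at Smad7 to 4.57 Mb at Twist1, beside a median of 1068.6 kb for all sites.

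The sites most like those of the 5 genes were sought by the sum of differences in percentile rank of score, fold, tags and distance to the gene start, over the symbol-bearing sites of experiment 2. The closest were at Plscr4 for Smad7 (a sum of 13.2 percentage points), Cox10 for Cldn1 (13.5), Pdzrn3 for Twist1 (15.1), Papss1 for Vegfc (22.3) and Rab3gap1 for Smad2 (23.3). The second closest were at Mdga2 for Twist1 (19.3), Prlhr for Vegfc (25.1), Hdx for Smad2 (28.0), Barhl2 for Smad7 (31.2) and Tars for Cldn1 (37.9). The Plscr4 site, for example, had 10 tags at 9.56-fold and lay 54.05 kb from the gene start. It lay upstream of its gene, whereas the Smad7 site lay downstream. Distance was taken without its direction, and 9 of the 10 sites lay on another side or part of their gene than the site they match, with Rab3gap1 as the exception. This likeness is one of peak values within 1 list.

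Other genes of the same pathways were examined through 10 lists of 139 genes. A symbol-bearing site in either list was found for 12 of them (8.63%), 5 of which are the genes described above, beside 2.45% of the 21900 protein-coding genes of the RefSeq table. The share is raised by the 5 genes picked for their sites. The lists were also chosen with earlier results of these data known, so the other genes with a site are no independent evidence. Neither gene length nor the size of the surrounding intergenic region was corrected for. No test was made. Among the 8 Smads, sites were found at Smad2 and Smad7, and none was assigned to Smad4, the common partner, or to Smad3. Of the 13 TGF-beta ligands 1 had a site, and of the 13 receptors 0. The 13 targets and matrix genes and the 11 angiogenic receptors, Flt4 and Kdr among them, also had 0. Beside the 2.45% of all genes, a count of 0 in lists this short is no result about their genes. Less than 50% of the sites carry a symbol (307 of 742 and 384 of 901), and these counts are lower limits.

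The ligand was Bmp7, a bone morphogenetic protein that opposes TGF-beta in epithelia. Its site lay 99.6 kb past the gene start in experiment 2 (16 tags, 10.19-fold, FDR 100%). By score the Bmp7 site ranked 884 of 901, close to the last. Among 14 angiogenic ligands, 4 had a site, all in experiment 2 alone. Beside Vegfc they were Hgf, Pdgfc and Pdgfd, each with an FDR of 100%. Hgf, the ligand of Met, had 10 tags at 8.81-fold, 85.7 kb past the start (rank 881 of 901 by score). Pdgfc had 12 tags at 8.36-fold, 223 kb past the start (rank 466). Pdgfd had 10 tags at 11.15-fold, 293 kb upstream (rank 441). The site at Pdgfd had the same tags and fold as that at Twist1. Cdh5, the cadherin of endothelial junctions, was the sole gene of the lists with a site in experiment 1 alone. That site had 20 tags at 6.66-fold, 182 kb upstream, with an FDR of 100% (rank 352 of 742 by score).

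Twist1 belongs to a list of 15 EMT factors, of which 3 had a site. Those at Foxc1 and Ovol2 were found in both experiments, while that at Twist1 was not. Foxc1, a forkhead factor, had a site 32.4 kb upstream on chromosome 13 from 31865675 to 31866470 in experiment 1 (89 tags, 32.99-fold, FDR 9.09%, rank 11 of 742 by score). In experiment 2 the same place held 21 tags at 10.26-fold, with an FDR of 100% (rank 79 of 901). Ovol2, a zinc finger repressor of mesenchymal genes, had a site 6.39 kb upstream on chromosome 2 from 144163949 to 144164396 in experiment 1 (16 tags, 8.66-fold, FDR 100%, rank 423 of 742). Experiment 2 gave it 11 tags at 17.52-fold, with an FDR of 100% (rank 66 of 901). Of the 12 genes, 3 had a site in experiment 1, and 2 of these were shared, beside 14.7% of all its sites. In experiment 2, 11 had a site and the same 2 were shared, beside the 12.4% given above. Folds of the 2 lists were called separately and were not compared.

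**Figure D5:**
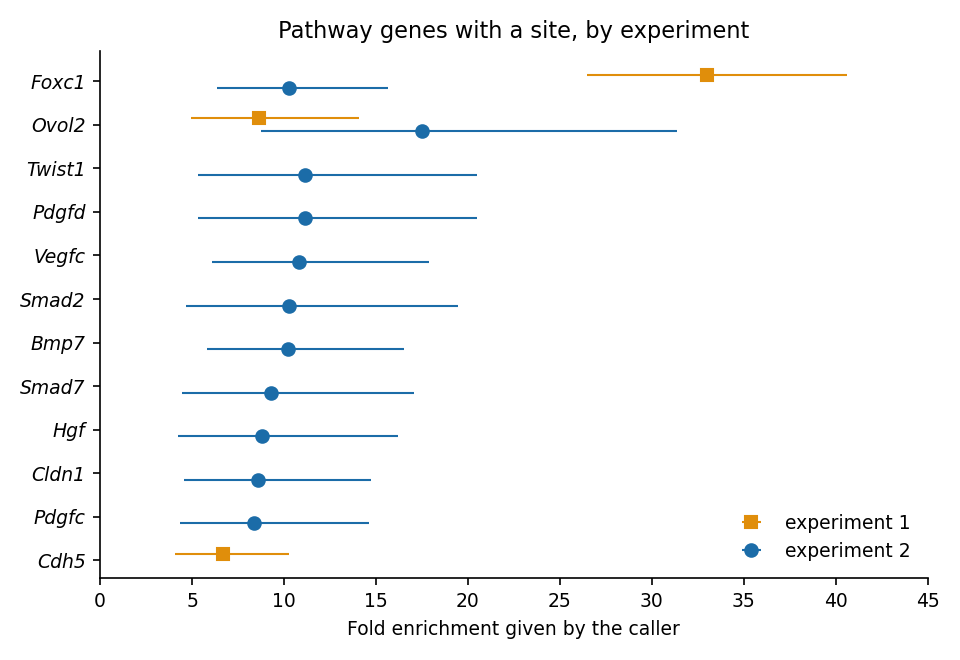
Authors' fold enrichment at the 12 pathway genes with a symbol-bearing site, in experiment 1 (squares) and experiment 2 (circles). Bars are the exact Poisson 95% interval of the tags, scaled as if the fold were proportional to the tags. Foxc1 and Ovol2 have a point in both experiments; Twist1, Vegfc, Smad2, Smad7 and Cldn1 have one in experiment 2 alone, between 8.60-fold and 11.15-fold.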

How the data were processed

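The authors deposited 2 annotated site lists, each from KLF6-ChIP against input. The submitters' processing notes name MACS 1.3.6 and build mm9, without the step. The aligner and the settings were not given in the sources used. Per the file headers, the lists hold a tag count, a score (10 times −log10 of the p-value), a fold enrichment (a ratio) and an FDR in percent for each site. These deposited values were used only to describe and rank sites within a list. Symbols were taken from the lists, and names and gene order from RefSeq (GRCm38.p6, no coordinates used). Overlap, nearest summit and rank were computed in Python 3.11.15 with pandas 2.3.3 and tested on simulated data. Poisson intervals (95%, SciPy 1.17.1) cover counting error only. With 1 sample per group and no column per library, no test was made. Text names the 5 genes, every list gene with a site, each site's 2 most similar sites, and Fgfr2 outside this rule. Nearest sites are named for Smad2 and Smad7 and given by distance alone for the other genes. The genes and lists were chosen with earlier results of these data known. Alternatives changed the overlap, distance, ranking measure and experiments used. No sequence of the sites is shown.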

Additional observations from a re-analysis of the deposited data

How the results depend on the processing

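Of 22 alternatives, 1, which ties genes to sites by description, was chosen after seeing the data and gave 14 pathway genes with a site. The share of all genes counted that way was not computed. The number of sites at the 5 genes was 5 in the main count and 2 within 100 kb of the gene start, which drops Twist1, Vegfc and Cldn1. Over all 901 sites of experiment 2 the distance to the gene start had a median of 50.4 kb and an upper quartile of 128.59 kb. The number at the 5 genes was also 2 inside the gene. It was 0 to 5 when either experiment was left out, because all 5 sites come from experiment 2. Sites with a site of experiment 1 nearby were 0 at every setting up to 100 kb and 1 at 1 Mb, as the wider window implies. The pathway genes with a site were 12, 6 within 100 kb, 6 among the higher-scoring 50% of each list, and 3 to 11 with an experiment left out. Each setting drops sites of all genes as well. The shares of all genes at these settings were not counted, so these drops are no result about the pathway genes. The median fold stayed between 9.76 and 10.5 without each gene in turn. No paired analysis was possible because each group has 1 sample and the lists hold no values per library. Tags of 9 to 15 per site limit the precision of the folds at the 5 genes.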

Other observations

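Some genes of these pathways had sites that carry a description but no symbol, and were picked after their values were seen. Pmepa1, a TGF-beta-induced gene whose product restrains Smad signalling, had a site 35.8 kb upstream in experiment 2 (10 tags, 11.10-fold, FDR 100%). Cdh2, which encodes the N-cadherin gained in EMT, had a site inside the gene in experiment 2, 81.9 kb past its start (10 tags, 11.15-fold, FDR 100%), with the same tags and fold as Twist1. With these the pathway genes with a site number 14. The share of all genes with a site by symbol or description was not counted, so this number has no background beside it. The nearest summit of experiment 1 was 1387.4 kb from the Pmepa1 site and 5719.9 kb from the Cdh2 site.

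Fgfr2, a fibroblast growth factor receptor gene on none of the lists and outside the rule for named genes, was picked after its values were seen and had a site found in both experiments. It lay 17.7 kb upstream on chromosome 7 from 137427481 to 137428206, with 76 tags at 37.3-fold and an FDR of 10.0% in experiment 1 (rank 10 of 742 by score). Experiment 2 gave 18 tags at 15.78-fold and an FDR of 100% (rank 34 of 901).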
